A study of Mus musculus with 8 samples.

Results

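The genes of the mitochondrial respiratory chain and ATP synthase were described in mouse bone marrow mesenchymal stem cells exposed to ellagic acid. Members were chosen by name. They were every gene whose symbol begins with mt-, and the Nduf and Sdh names of subunits and assembly factors of complexes I and II. The Uqcr and Atp5 names of complexes III and V, the numbered subunits of cytochrome c oxidase, and Cycs were added. Cyc1, the cytochrome c1 of complex III, and the assembly factors of complexes III to V lie outside the rule. The rule found 115 of the 21899 genes in the table, 13 on the mitochondrial genome and 102 in the nucleus. Gene expression had been measured by RNA sequencing of poly(A) RNA in stromal progenitor cells of the femur. In the EA group 10 µM ellagic acid, a plant polyphenol, was given for 48 h, and the control group received the solvent DMSO. Each group had 4 libraries, called control 1 to 4 and EA 1 to 4. Whether the 4 of a group are separate animals or cultures is not stated in the labels; p-values therefore describe the spread between libraries alone, which may be technical.

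The respiratory chain sits in the inner mitochondrial membrane. Complexes I and II pass electrons from NADH and succinate to ubiquinone, complex III passes them on to cytochrome c, and complex IV hands them to oxygen. Complexes I, III and IV pump protons as they do so, and ATP synthase, complex V, uses the returning protons to make ATP. A few hydrophobic core subunits are encoded on the small circular mitochondrial genome, which is transcribed inside the organelle as long precursors by its own polymerase. All other subunits, and every subunit of complex II, come from nuclear genes and are imported.

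Total counts ranged from 14112519 to 17390200 reads per library. Summed mesenchymal stromal markers, as CPM (reads scaled to a common library size, here by library totals), ran from 2898 to 3268 in control and from 3266 to 3442 in EA, and 10 of 10 had at least 10 reads over the 8 libraries, although Thy1 had 19 reads in all. By the gene-wise test below, Pdgfra (log2 fold change 2.20), Pdgfrb (1.45), Nt5e (0.51), Eng (0.70) and Itgb1 (0.56) were called higher in EA. Ly6a (−1.495) and Vcam1 (−0.57) were called lower, and Cd44 and Cxcl12 did not pass. The sum therefore hides opposite changes of its members. Summed haematopoietic markers were at 34.2 to 42.3 CPM in control against 8.24 to 10.1 in EA, 4 of 7 having 10 reads or more. Nearly all of these reads were of Cd14, and Cd3e was at 0. Striated muscle markers were at 1.62 to 3.34 CPM in control against 3.85 to 9.92 in EA, 3 of 5 having 10 reads or more, and most were of Acta1. The 4 endothelial markers were at 0.779 to 2.20 CPM, 3 erythroid markers at 0.142 to 2.13 and 2 brown fat markers at up to 0.0624, with Ucp1 at 0. The part of other cell types in the results was not tested. In bulk RNA fewer cells of a type and less RNA per cell cannot be told apart.

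Transcripts of the mitochondrial genome were higher in EA than in control, while those of most nuclear members moved little. Among 12 tested mitochondrial genes there were 10 rises and 0 falls, and the median log2 fold change was 0.75 (edgeR quasi-likelihood test, Benjamini-Hochberg adjusted p under 0.05, TMM scaling). Of 93 tested nuclear members 31 were higher, 10 were lower and 52 did not pass, with a median of 0.13. Among all 11777 tested genes 67.2% were called, 33.1% higher and 34.2% lower, with a median of −0.02. The share of nuclear members called, 44.1%, lay below that background, and the median size of their log2 fold changes was 0.18 against 0.39 over all genes. The 4 EA libraries lay above all 4 controls for 7 mitochondrial genes and 17 nuclear members, against 29.9% of all tested genes, and below them for 0 and 7, against 30.7%. A change of at least 1 on the log2 scale was called for 17.7% of all tested genes, but for 1 nuclear member, Ndufc2, and for 2 mitochondrial genes, mt-Nd3 and mt-Nd6. Of the 115 members 10 did not pass the filter on low counts, 3 of them with no reads at all.

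The direction of the nuclear genes, though not of the mitochondrial ones, depended on the scaling between libraries. The TMM method assumes that most genes do not change on balance. Scaling to library totals moved the median of all tested genes from −0.02 to −0.38, and the counts for all genes became 1940 higher and 7196 lower (21.2% of calls higher, against 49.2% with TMM). Nuclear members then stood at 4 higher and 57 lower with a median of −0.23, and mitochondrial genes at 7 higher and 0 lower with a median of 0.39. Upper-quartile factors gave 9 higher and 24 lower nuclear members with a median of −0.03, and 9 higher and 0 lower mitochondrial genes with a median of 0.60; over all genes they gave 2830 higher and 5338 lower. Of the 31 nuclear members higher with TMM, 20 had a negative value with library totals, while each of the 10 lower ones was also called lower there. Changes below are on the TMM scale unless said otherwise. Counts with library totals given below stand beside 1940 higher and 7196 lower of all 11777 tested genes. The count of lower nuclear members also rested on single libraries: it was 5 without control 1, 5 without EA 1 and 6 without EA 3.

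**Figure D1:**
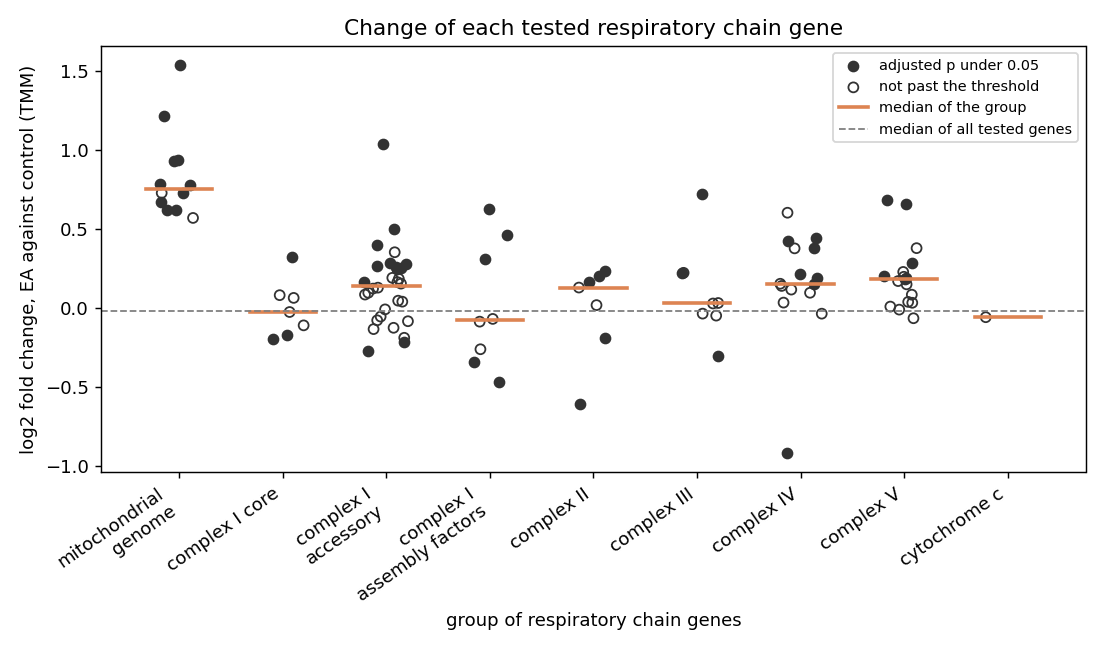
Each point is a tested respiratory chain gene, at its log2 fold change of EA against control with TMM scaling; filled points passed the threshold and bars mark group medians. The mitochondrial genes lie at 0.57 to 1.53, above the medians of all nuclear groups, which lie between −0.08 and 0.18 with TMM and fall to −0.44 to −0.18 with library totals.

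The share of each library's reads in mitochondrial genes uses no fitted scaling factor, but it is itself relative to library totals. It was 1.80%, 2.22%, 2.17% and 2.10% in control 1 to 4 and 2.68%, 2.73%, 2.72% and 2.32% in EA 1 to 4. The lowest EA library lay above the highest control, and the means were 2.07 ± 0.188% and 2.61 ± 0.195% (SD, n = 4 each). This difference of 0.541 points gave p = 0.0286 in a two-sided exact permutation test over 70 assignments, the smallest p that 4 against 4 allows. Leaving out any 1 control kept the direction (0.45 to 0.589 points) with an exact permutation p of 0.0571. Nuclear members together took the opposite course as a share of reads, at 0.687 ± 0.0294% in control and 0.561 ± 0.0165% in EA, again without overlap (exact permutation p = 0.0286). This fall was not particular to them: with library totals the median log2 fold change was −0.38 for all tested genes and −0.23 for nuclear members. Their mean log2 CPM, with TMM scaling and each gene weighted alike, was 4.93 ± 0.0664 in control and 5.04 ± 0.0738 in EA, and the groups overlapped.

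The ratio of summed mitochondrial to summed nuclear member reads within a library does not depend on the scaling between libraries. On the log2 scale it was 1.36, 1.68, 1.61 and 1.70 in control 1 to 4 and 2.24, 2.25, 2.34 and 2.04 in EA 1 to 4. Every EA library lay above every control library, with means of 1.59 ± 0.155 and 2.22 ± 0.128 and a difference of 0.63. With each gene weighted alike in place of each read, the difference was 0.70. Split by complex, the ratio of mitochondrial to nuclear member reads was higher in EA by 0.80 for complex I, 0.57 for complex III, 0.49 for complex IV and 0.70 for complex V. The groups stood apart in complexes I, III and IV and overlapped in complex V, whose mitochondrial reads were few.

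**Figure D2:**
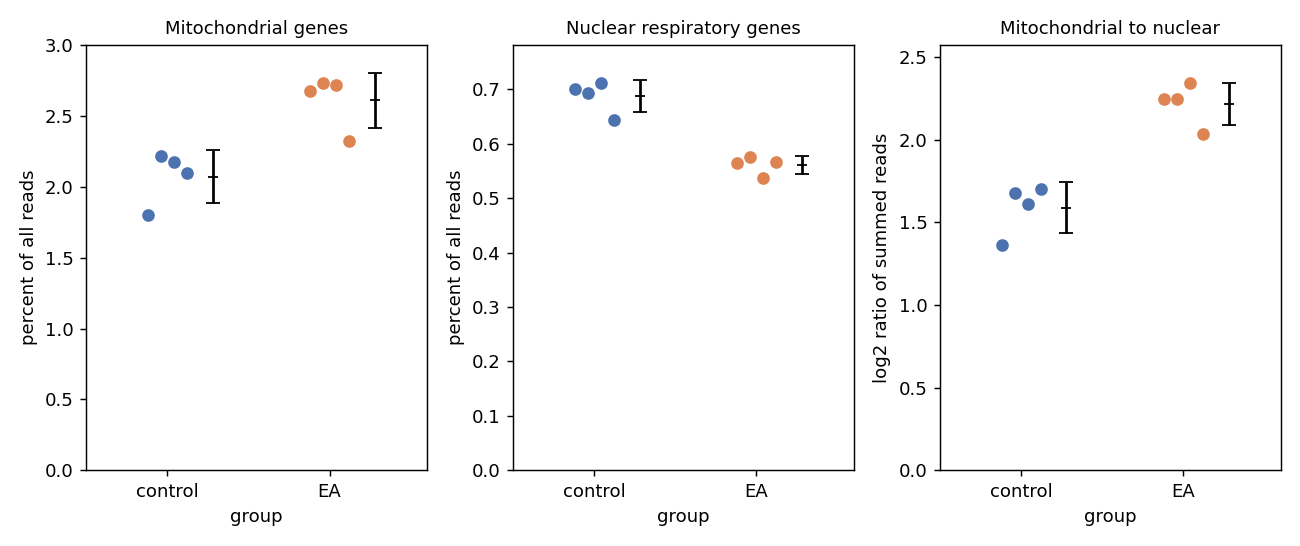
The percent of all reads in the 13 mitochondrial genes, the percent in the 102 nuclear members, and the log2 ratio of the former to the latter are shown per library, with the mean and SD of 4 libraries beside the points. The mitochondrial share is 1.80 to 2.22% in control and 2.32 to 2.73% in EA, the nuclear share is lower in EA, and the ratio does not overlap between groups.

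The 13 mitochondrial genes differed widely in level. Per length, mt-Co1 led at a mean of 7668 FPKM over 8 libraries, followed by mt-Cytb at 3385, mt-Nd1 at 1761, mt-Nd5 at 1562, mt-Nd2 at 1230, mt-Nd4 at 1217 and mt-Nd6 at 277. The remaining genes were far lower, with mt-Co2 at 62.7 FPKM, mt-Co3 at 28, mt-Atp6 at 11.3, mt-Nd3 at 2.95, mt-Nd4l at 2.60 and mt-Atp8 at 0.309. In the 8 libraries together mt-Nd4l had 97 reads and mt-Atp8 had 8. Some neighbours in this order did not differ beyond the spread between libraries. In EA mt-Nd1 (1917 ± 196 FPKM) and mt-Nd5 (1866 ± 194) were such a pair, as were mt-Nd2 (1472 ± 196) and mt-Nd4 (1392 ± 82.9).

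The low group coincided with a stretch of the mitochondrial genome that has a near-identical copy in the nucleus. On chromosome 1 of build GRCm38 (GENCODE M21), 7 annotated pseudogenes on the minus strand match 8 of the mitochondrial genes at 99.71 to 100% identity and lie at chr1:24611535-24616197, a span of 4663 bases. They correspond to mitochondrial bases 6390 to 11042, and the gap of 233 bases between the copies of mt-Co2 and mt-Atp6 equals the gap on the mitochondrial genome. For mt-Co2, mt-Atp6, mt-Co3, mt-Nd3 and mt-Nd4l 99.9 to 100% of coding bases had such a copy, and their mean level ranged from 2.60 to 62.7 FPKM. For mt-Nd1, mt-Nd2, mt-Nd5, mt-Nd6 and mt-Cytb no copy of at least 99% identity was found, and their level ranged from 277 to 3385 FPKM. Between them stood mt-Nd4, with 63.6% of its coding bases copied, mt-Co1 with 31.1% and mt-Atp8 with 19.9%. Only annotated transcripts were searched, so bases between the pseudogenes were not compared and all these shares are lower bounds. This matters most for mt-Atp8 (mitochondrial bases 7766 to 7969), which lies within the copied stretch and mostly in the gap of 233 bases. Reads from a stretch shared with a copy cannot be assigned to 1 place, and how the authors counted such reads is not given in the sources used here. Values of the 5 fully copied genes are therefore uncertain, and in part those of mt-Co1, mt-Nd4 and mt-Atp8. The part of the copy in the low levels was not tested.

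**Figure D3:**
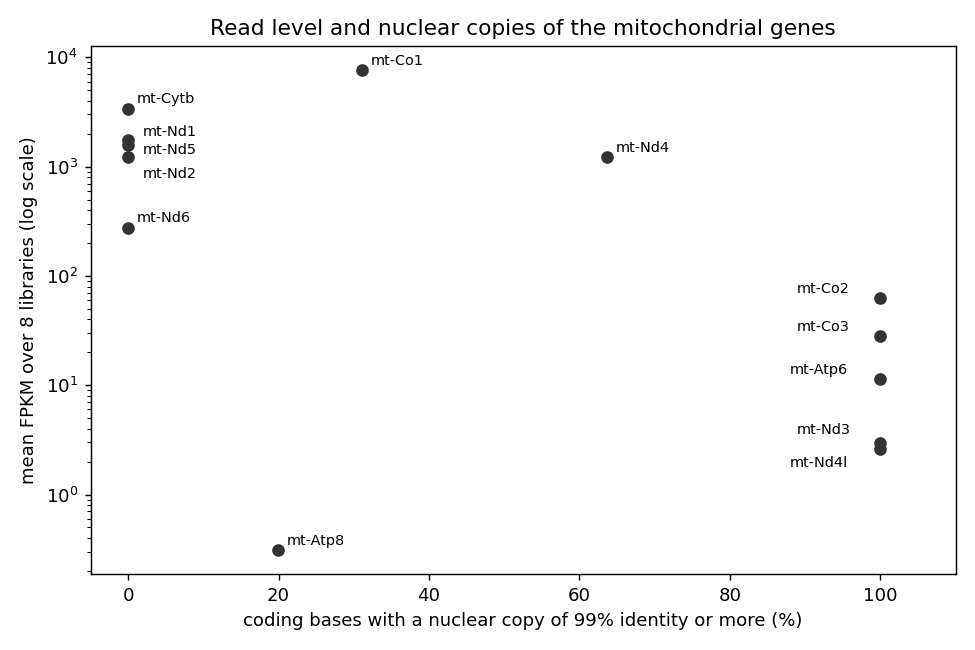
The mean FPKM over 8 libraries (log axis) is plotted for each mitochondrial gene against the percent of its coding bases with a nuclear copy of at least 99% identity. Copies were sought among annotated transcripts only, so each percent is a lower bound. The 5 genes with 99.9 to 100% lie at 2.60 to 62.7 FPKM, the 5 without such a copy at 277 to 3385 FPKM, and mt-Atp8, with 8 reads, lies lowest.

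The first 120 coding bases of mt-Co2 (mitochondrial bases 7013 to 7132, plus strand) show how close the copies are. They are set against its copy Gm28661 (chr1:24615446-24615565, minus strand) and a more divergent copy, Gm13341 (chr2:22587843-22587962, minus strand), both GRCm38, with capitals where a copy differs from the mitochondrial gene.
mt-Co2: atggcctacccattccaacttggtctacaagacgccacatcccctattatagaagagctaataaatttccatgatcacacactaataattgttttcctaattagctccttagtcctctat
Gm28661: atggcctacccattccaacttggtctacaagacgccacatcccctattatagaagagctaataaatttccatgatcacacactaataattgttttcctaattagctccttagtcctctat
Gm13341: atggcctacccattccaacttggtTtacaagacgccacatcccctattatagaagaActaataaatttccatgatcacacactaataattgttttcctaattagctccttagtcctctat
Gm28661 had 0 mismatches in this window and matched all 681 coding bases, while Gm13341 had 2 here and an identity of 95.89% over the gene.

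For mt-Co1, the most abundant member, the same comparison is shown where its chromosome 1 copy begins, at coding bases 1063 to 1182 (mitochondrial bases 6390 to 6509, plus strand). Gm29216 (chr1:24616069-24616188, minus strand) is the near-identical partial copy and Gm13340 (chr2:22588466-22588585, minus strand) a full-length one, with capitals at differences.
mt-Co1: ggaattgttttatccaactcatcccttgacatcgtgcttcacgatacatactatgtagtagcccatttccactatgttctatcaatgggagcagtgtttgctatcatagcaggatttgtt
Gm29216: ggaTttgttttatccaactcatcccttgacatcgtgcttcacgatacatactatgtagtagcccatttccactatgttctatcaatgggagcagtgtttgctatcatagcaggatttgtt
Gm13340: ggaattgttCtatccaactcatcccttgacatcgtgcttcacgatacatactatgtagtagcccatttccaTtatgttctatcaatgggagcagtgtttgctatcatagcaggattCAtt
In this window Gm29216 had 1 mismatch and Gm13340 had 4; over the aligned 480 and 1542 coding bases their identities were 99.79% and 97.6%.

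Among the mitochondrial genes of complex I, which form its proton-pumping membrane arm, 6 of 7 rose, with a median log2 fold change of 0.93. mt-Nd5, the largest of these pump subunits, stood at 1649, 2206, 2052 and 2194 CPM in control 1 to 4 and at 3888, 3997, 4239 and 3319 in EA 1 to 4. The groups were well apart, and the log2 fold change was 0.93 ± 0.09 (SE, adjusted p = 6.58e-07, edgeR quasi-likelihood test). mt-Nd4, another pump subunit, went from 1092, 1378, 1357 and 1243 CPM to 2224, 2178, 2296 and 2006 CPM, a rise of 0.78 ± 0.07 (adjusted p = 3.9e-09, edgeR). mt-Nd2, also a pump subunit, went from 905 ± 150 to 1734 ± 226 CPM (SD, n = 4) and rose by 0.94 ± 0.13 on the log2 scale, and mt-Nd1, which helps to form the ubiquinone site, went from 1356 ± 202 to 2081 ± 208 CPM and rose by 0.62 ± 0.11. In all 4 genes every EA library lay above every control library. With library totals mt-Nd1 was at 0.25 with an adjusted p of 0.0508 (edgeR), while mt-Nd2, mt-Nd4 and mt-Nd5 were still called higher.

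The largest rise of the mitochondrial genes was that of mt-Nd6 (ENSMUSG00000064368), the one protein gene of the table on the minus strand of the mitochondrial genome, at bases 13552 to 14070. It was at 48.3, 85.5, 61.8 and 117 CPM in control 1 to 4 and at 258, 263, 239 and 145 in EA 1 to 4. Both groups were widely spread, but the lowest EA library lay above the highest control; the fold was 2.89 and the log2 fold change 1.53 ± 0.33 (adjusted p = 0.00605, edgeR). Its annotated span overlaps mt-Nd5 by 14 bases on the opposite strand, and the strand setting of the counting is not given in the sources used here, so reads of mt-Nd6 and of the strand opposite to it cannot be told apart. mt-Nd3, a small subunit whose sequence is fully copied on chromosome 1, had 45 reads in control and 82 in EA and rose by 1.21 ± 0.36 (adjusted p = 0.00535, edgeR), with overlapping groups. mt-Nd4l, equally copied, had 42 and 55 reads and did not pass (0.73 ± 0.37, adjusted p = 0.0875, edgeR), although it did without EA 1 (0.91).

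mt-Cytb, the cytochrome b of complex III and its only subunit from the mitochondrial genome, stood at 2667, 3258, 3265 and 3035 CPM in control 1 to 4 and at 4933, 4987, 5049 and 4456 in EA 1 to 4. The groups did not overlap, and it rose 1.59-fold (log2 0.67 ± 0.06, adjusted p = 1.33e-08, edgeR).

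Complex IV takes its 3 catalytic core subunits from the mitochondrial genome. mt-Co1, which carries the oxygen-binding haem and copper centre, was at 8672, 10119, 9914 and 9438 CPM in control 1 to 4 and at 14949, 15330, 14928 and 13277 in EA 1 to 4. All EA libraries were above all controls, and mt-Co1 rose 1.53-fold (log2 0.62 ± 0.06, adjusted p = 1.83e-08, edgeR). mt-Co2, which receives electrons from cytochrome c, was at 31.3, 43.1, 41.8 and 24.4 CPM in control and 60.5, 58.7, 33.9 and 55.6 in EA; it did not pass (0.57 ± 0.25, adjusted p = 0.0774, edgeR) but did without EA 3 (0.73). mt-Co3 was at 16.4, 20.2, 21.2 and 9.92 CPM in control and 31.9, 29.7, 17.6 and 33.1 in EA, and its adjusted p was 0.0452 (log2 0.73 ± 0.27, edgeR). In both genes control 4 and EA 3 were the lowest of their groups and the groups overlapped. The call of mt-Co3 was lost without control 1, control 4, EA 1, EA 2 or EA 4, at 0.54 to 0.90 over all 8 such fits, and with limma voom and without the count filter. It was also lost with upper-quartile factors (0.57, adjusted p = 0.116, edgeR) and with library totals (0.36, adjusted p = 0.257).

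In complex V, mt-Atp6, the subunit that forms the proton path beside the rotor, was at 5.74, 7.10, 5.99 and 4.42 CPM in control and 9.65, 13.0, 6.37 and 11.0 in EA. EA 3 lay within the control range, as in mt-Co2 and mt-Co3, and the rise was 0.78 ± 0.19 (adjusted p = 0.00172, edgeR). mt-Atp8, whose small protein lies beside mt-Atp6, had 4 reads in each group and was not tested. The log2 fold change of mt-Atp6 with library totals was 0.42 with an adjusted p of 0.0567 (edgeR).

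**Figure D4:**
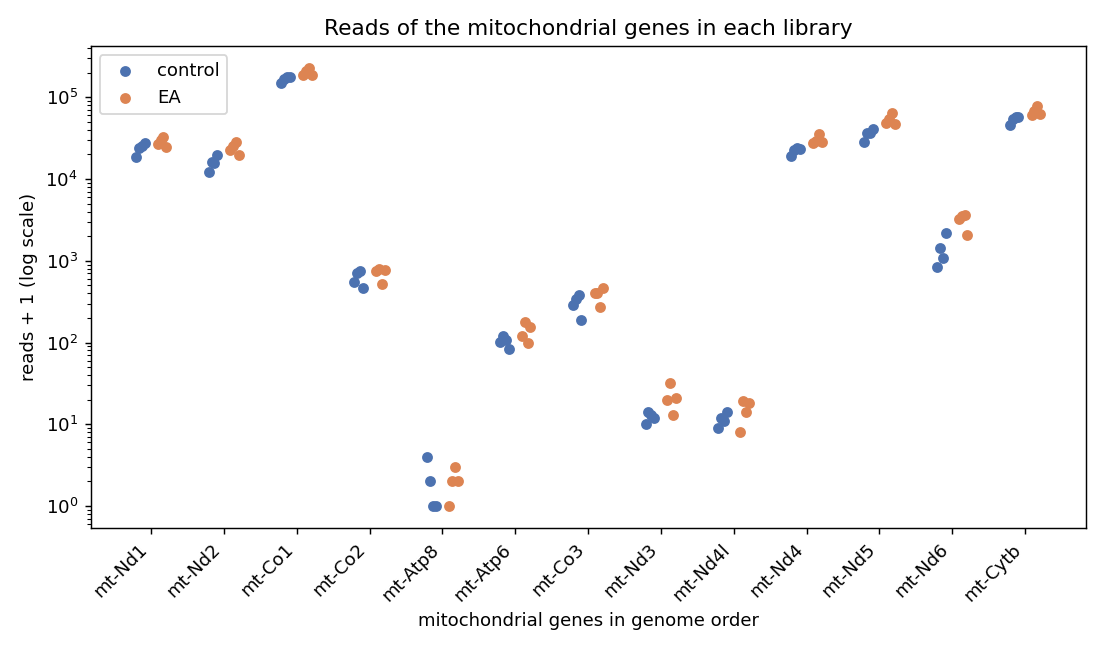
Reads + 1 of each mitochondrial gene in each library are shown on a log axis, with genes in the order of the genome and control beside EA. The genes from mt-Co2 to mt-Nd4l, at 0 to 797 reads per library, sit far below their neighbours on both sides, and in unscaled reads mt-Nd6 overlaps between groups, with control 4 at 2190 and EA 4 at 2044.

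The proportions of the mitochondrial genes to each other were also compared. Measured as a percent of the reads of mt-Co1 in the same library, mt-Nd5 stood at 19.0, 21.8, 20.7 and 23.2 in control 1 to 4 and at 26.0, 26.1, 28.4 and 25 in EA 1 to 4. mt-Nd4 stood at 13.3 ± 0.507% in control and 14.9 ± 0.501% in EA (SD, n = 4), also without overlap. In these and 4 other genes the ratio was compared by two-sided exact permutation tests, a comparison chosen after the values were seen. The unadjusted p was 0.0286 for mt-Nd4 and mt-Nd5, 0.0571 for mt-Nd2, mt-Nd6 and mt-Cytb, and 0.83 for mt-Nd1 (exact permutation). After Benjamini-Hochberg adjustment over the 6 relations the first 5 were at 0.0686, so none passed. mt-Co1 took 52.2 ± 1.54% of mitochondrial reads in control and 49.3 ± 0.679% in EA.

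In the nuclear part of complex I, the 7 core subunits that carry the flavin and iron-sulfur clusters gave 1 gene higher and 2 lower, with a median of −0.03 that fell to −0.39 with library totals. Calls with TMM made up 42.9% of these subunits, below the 67.2% of all tested genes. Ndufv2, an iron-sulfur subunit of the NADH-oxidising module, was at 64.8, 69.9, 70.4 and 68.5 CPM in control and 84.5, 92.5, 83.6 and 81.4 in EA. Its groups were apart and it was higher by 0.32 ± 0.06 with TMM (adjusted p = 0.000122, edgeR), but at −0.04 with library totals. Ndufs8, which carries iron-sulfur clusters towards the ubiquinone site, went from 58.5 ± 1.71 to 51.0 ± 3.56 CPM and fell by 0.20 ± 0.07 on the log2 scale. The call of Ndufs8 was lost without EA 1 (−0.17) or EA 3 (−0.16). Ndufs1, the large iron-sulfur subunit and the lowest of the 7 at a mean of 4.23 FPKM, was at 33.2 ± 2.36 and 35.1 ± 2.01 CPM and did not pass.

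Of 30 tested accessory subunits of complex I, which surround the core, 10 were higher and 2 lower. Over all tested genes 33.1% were higher and 67.2% were called, against 40% called of these subunits. Their median was 0.14 with TMM but −0.02 with upper-quartile factors and −0.22 with library totals. With library totals, where 7196 of all 11777 tested genes were lower, 15 of these subunits were lower and 1 higher. That 1 gene was Ndufc2 (ENSMUSG00000030647, chromosome 7, 97049210 to 97057009, GRCm39), a membrane-arm subunit. It stood at 8.83, 10.8, 10.9 and 11.6 CPM in control 1 to 4 and at 22.7, 22.1, 20.2 and 21.8 in EA 1 to 4. The groups lay far apart, with a 2.05-fold rise (log2 1.04 ± 0.10, adjusted p = 2.39e-08, edgeR) and 0.67 with library totals. Ndufb1 went from 7.61 ± 0.793 to 10.8 ± 2.58 CPM and was higher by 0.50 ± 0.15, a call lost without EA 2 (0.34), with upper-quartile factors (0.34) and with library totals (0.13). The Ndufb1 gene overlaps 1081 bases of Cpsf2, a polyadenylation factor gene on the opposite strand that was lower in EA (−0.58 ± 0.07). Ndufb10 was at 61.9 ± 6.96 and 74.9 ± 6.36 CPM and was higher by 0.28 ± 0.08 with TMM but at −0.09 with library totals.

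The 2 accessory subunits called lower had small changes. Ndufab1, the mitochondrial acyl carrier protein, was at 13.2 ± 1.59 and 10.9 ± 0.375 CPM and fell by 0.27 ± 0.11, a call that was kept only without control 2 among the 8 fits with a library left out (−0.34 to −0.20) and lost with DESeq2 and without the count filter. Ndufs5 was at 42.0 ± 2.14 and 36.1 ± 4.81 CPM and fell by 0.22 ± 0.09, a call lost without control 1, 2 or 3, EA 1 or EA 3 (−0.26 to −0.12 over all 8). Both have copies of at least 99% identity over 90% or more of their coding bases, as do Ndufb4, Cox5b, Cox5b-ps, Cox7c, Atp5g1, Atp5g2, Atp5l, Atp5md and Cycs, so the values of these 11 nuclear members are uncertain. Ndufa2 had the highest level of the accessory subunits, 71.7 FPKM, and was at −0.19 ± 0.09 without passing, although it did without control 4 (−0.27) or EA 4 (−0.23). Ndufb2 had the lowest level, 0.604 FPKM, and did not pass. Its span overlaps 4022 bases of Gm42420 on the same strand, which was at 0 CPM in both groups. How shared reads were counted is not given in the sources used here, so this level is uncertain.

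The 8 assembly factors of complex I with Nduf names, which help to build the complex and are not part of it, split into 3 higher and 2 lower. Their share called, 62.5%, lay near the 67.2% of all tested genes. Ndufaf4 was at 19.2, 21.5, 20.0 and 27.6 CPM in control and 15.5, 15.3, 14.6 and 18.5 in EA. All EA libraries were below the controls, and it fell by 0.47 ± 0.12 on the log2 scale (adjusted p = 0.00148, edgeR). Ndufaf3 fell by 0.34 ± 0.13, from 11.7 ± 1.95 to 9.22 ± 0.755 CPM, a call lost without control 1, 2 or 3, EA 1 or EA 4 (−0.45 to −0.28 over all 8), and with limma voom. Ndufaf3 overlaps 48 bases of Impdh2, a gene of guanine nucleotide synthesis on the opposite strand that was at −0.19 ± 0.06. Ndufaf2 was higher by 0.63 ± 0.18, from 4.38 ± 0.563 to 6.80 ± 1.71 CPM, and its span overlaps 4727 bases of Smim15 on the opposite strand, itself higher by 0.46 ± 0.10. Ndufaf6 was higher by 0.46 ± 0.12, from 8.27 ± 0.681 to 11.4 ± 1.06 CPM. With library totals Ndufaf2 was at 0.26 and Ndufaf6 at 0.10, and neither passed. Ndufaf1 was higher by 0.31 ± 0.11 with TMM, at −0.06 with library totals, and its call was lost without EA 4 (0.25). With library totals this group had 0 higher and 5 lower members, where 7196 of all 11777 tested genes were lower.

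Complex II, succinate dehydrogenase, also belongs to the tricarboxylic acid cycle. With TMM, 2 of its 4 subunits were higher and 1 lower, so 75% were called, against 67.2% of all tested genes. Sdhc, a membrane anchor, was at 68.7 ± 4.81 and 81.0 ± 4.53 CPM and higher by 0.24 ± 0.07. Sdha, the flavoprotein, was at 142 ± 9.09 and 160 ± 5.37 CPM and higher by 0.17 ± 0.06, a call lost without control 2 (0.16) or EA 2 (0.15). Sdhb, the iron-sulfur subunit, was at 61.3 ± 4.68 and 53.8 ± 3.80 CPM and fell by 0.19 ± 0.07, a call lost without control 1 (−0.14), EA 1 (−0.19) or EA 3 (−0.14). Both rises turned negative with library totals, to −0.13 for Sdhc and −0.20 for Sdha.

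Of the assembly factors of complex II, Sdhaf3, which protects the iron-sulfur subunit, was at 8.55, 6.98, 8.42 and 7.94 CPM in control and 4.34, 6.40, 4.81 and 5.34 in EA. Its groups were apart and it fell by 0.61 ± 0.15 on the log2 scale (adjusted p = 0.00115, edgeR). Sdhaf2, which helps to attach the flavin, was higher by 0.20 ± 0.06, from 42.1 ± 0.647 to 48.5 ± 1.29 CPM, and at −0.16 with library totals; it overlaps 877 bases of Cpsf7 on the opposite strand, which did not pass (0.06 ± 0.06). Sdhaf1 had 8 reads in control and 0 in EA and was not tested.

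In complex III, 2 of 8 tested nuclear genes were higher and 1 lower, with a median of 0.03 that fell to −0.33 with library totals. Calls with TMM came to 37.5%, below the 67.2% of all tested genes. Uqcrh, the hinge subunit beside cytochrome c1, was at 38.5, 39.6, 42.2 and 32.7 CPM in control and 69.5, 61.2, 60.7 and 60.6 in EA. Its groups were far apart, with a 1.64-fold rise (log2 0.72 ± 0.08, adjusted p = 9.67e-08, edgeR) that was called with library totals too (0.35). Uqcrq, a small subunit next to cytochrome b, was at 89.0, 92.6, 82.6 and 77.8 CPM in control and 67.7, 72.3, 61.3 and 76.4 in EA. It fell by 0.30 ± 0.07 without overlap (adjusted p = 0.00131, edgeR). Uqcrc1, a core protein, was at 97.1 ± 4.60 and 113 ± 6.04 CPM and higher by 0.22 ± 0.06 with TMM, but at −0.15 with library totals. Uqcrb was the lowest in level at 8.75 FPKM and did not pass. Within this 1 complex, then, the subunits Uqcrh and Uqcrq changed in opposite directions under TMM and under library totals.

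Complex IV had 6 of 15 tested nuclear genes higher and 1 lower, with 46.7% called against 67.2% of all tested genes. Its median was 0.15 with TMM, −0.0045 with upper-quartile factors and −0.21 with library totals. With library totals 0 of the 15 were higher and 9 lower, where 7196 of all 11777 tested genes were lower. Cox6b1, which lies where the monomers of the complex meet, was at 33.5, 34.0, 37.5 and 29.6 CPM in control and 46.4, 45.6, 47.4 and 41.3 in EA. Its groups were apart, at a log2 fold change of 0.42 ± 0.08 (adjusted p = 8.94e-05, edgeR). Cox7c was higher by 0.44 ± 0.11, from 37.2 ± 3.37 to 50.4 ± 9.31 CPM, and Cox5a by 0.38 ± 0.12, from 15.9 ± 2.44 to 20.7 ± 2.97 CPM, both with overlapping groups. With library totals Cox6b1, Cox7c and Cox5a were at 0.06, 0.08 and 0.02 and did not pass.

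Several complex IV subunits exist as a general form and as a form restricted to muscle or other tissues. The general forms were abundant: Cox8a led the nuclear members at 311 FPKM, with Cox6a1 at 242, Cox7a2l at 135, Cox4i1 at 70.05, Ndufa4 at 63.6, Cox6b1 at 55.1 and Cox7a2 at 38.9. Of these Cox6b1 was higher, and Cox4i1 only just passed (0.15 ± 0.07, adjusted p = 0.0497, edgeR), a call kept only without control 1 or EA 3 among the fits with a library left out (0.10 to 0.21) and at −0.21 with library totals. Cox4i1 overlaps 352 bases of Emc8 on the opposite strand, which was higher in EA (0.91 ± 0.10). On the same strand Galnt2l, at 0 CPM in both groups, overlaps all 5986 bases of the Cox4i1 span. How reads shared by such genes were counted is not given in the sources used here. Cox8a (−0.04), Cox6a1 (0.14), Cox7a2 (0.03), Cox7a2l (0.12) and Ndufa4 (0.10) did not pass, although Cox6a1 did without control 1 (0.17) or EA 3 (0.18) and Cox7a2l without control 3 (0.15). Of the restricted forms, Cox4i2 had 13 reads in control and 19 in EA, Cox7a1 had 10 and 14, Cox8b had 2 and 1, Cox6b2 had 1 and 0, and Cox8c had 0 in both, so none of these was tested. Ndufa4l2 had 35 and 42 reads and did not pass (0.60 ± 0.39).

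Cox6a2, the form of heart and skeletal muscle, was the exception among the restricted forms, at a mean of 17.3 FPKM, and it had the largest fall of the nuclear members. It was at 15.0, 15.5, 12.8 and 15.7 CPM in control 1 to 4 and at 6.51, 8.61, 6.11 and 10.0 in EA 1 to 4. The groups did not overlap, with a 1.88-fold fall (log2 −0.91 ± 0.14, adjusted p = 9.45e-06, edgeR). Summed striated muscle markers, with library totals, were at 1.62 to 3.34 CPM in control and 3.85 to 9.92 in EA. Most of these reads were of Acta1 (86 in control, 389 in EA). Myh4, Ckm and Myh1 also had more reads in EA, while Myog had 8 in control and 1 in EA. A link of Cox6a2 to muscle cell content was not tested. The Cox6a2 gene (chromosome 7, 127804607 to 127805559, GRCm39) lies over all its 953 bases within the span of Itgad, an integrin gene on the opposite strand. Itgad was at 0.470 ± 0.174 CPM in control against 0.0710 ± 0.0536 in EA.

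Complex V had 6 of 17 tested nuclear genes higher and 0 lower with TMM, at a median of 0.18. With library totals 2 were higher and 10 lower at a median of −0.18, where 7196 of all 11777 tested genes were lower. The TMM calls came to 35.3%, against 67.2% of all tested genes, of which 33.1% were higher. Both genes still higher with library totals encode small membrane subunits outside the catalytic head. Atp5l, subunit g, was at 10.0, 11.7, 9.66 and 9.06 CPM in control and 17, 19.4, 13.9 and 14.9 in EA, and rose by 0.68 ± 0.12 (adjusted p = 5.65e-05, edgeR). Atp5mpl, a small proteolipid subunit, was at 14.3, 19.0, 15.8 and 13.2 CPM in control and 27.7, 24.8, 19.0 and 26.4 in EA, and rose by 0.65 ± 0.13 (adjusted p = 0.000155, edgeR). In Atp5l the groups lay apart; in Atp5mpl the lowest EA library only just exceeded the highest control. Atp5b, the catalytic beta subunit and the most abundant of complex V at 271 FPKM, was at 1164 ± 12.3 and 1112 ± 20.6 CPM and did not pass (−0.07 ± 0.05, adjusted p = 0.234, edgeR), although its groups did not overlap.

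The c subunit that forms the rotor ring of complex V comes from 3 genes with the same mature protein. Atp5g3 had the highest level at 45.4 FPKM, Atp5g2 was at 38.5 and Atp5g1 at 13.1. Atp5g2 was higher in EA by 0.29 ± 0.07 with TMM, from 58.4 ± 5.40 to 71.1 ± 2.75 CPM without overlap, and at −0.08 with library totals. Atp5g1 (0.04 ± 0.07) and Atp5g3 (0.08 ± 0.07) did not pass, and the difference between the 3 genes was not tested. Atp5o appeared in the table as 2 entries that share 1769 bases on the same strand. How reads of shared bases were counted is not given in the sources used here, so the level of Atp5o is uncertain. The entry with 81 reads in all did not pass (0.38 ± 0.37, adjusted p = 0.372, edgeR), and the other had 0 reads and was not tested.

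Cycs, cytochrome c, was at 91.9, 100, 82.6 and 114 CPM in control and 97.0, 97.3, 82.3 and 96.4 in EA. The groups overlapped and no difference was called (−0.06 ± 0.09, adjusted p = 0.562, edgeR).

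**Figure D5:**
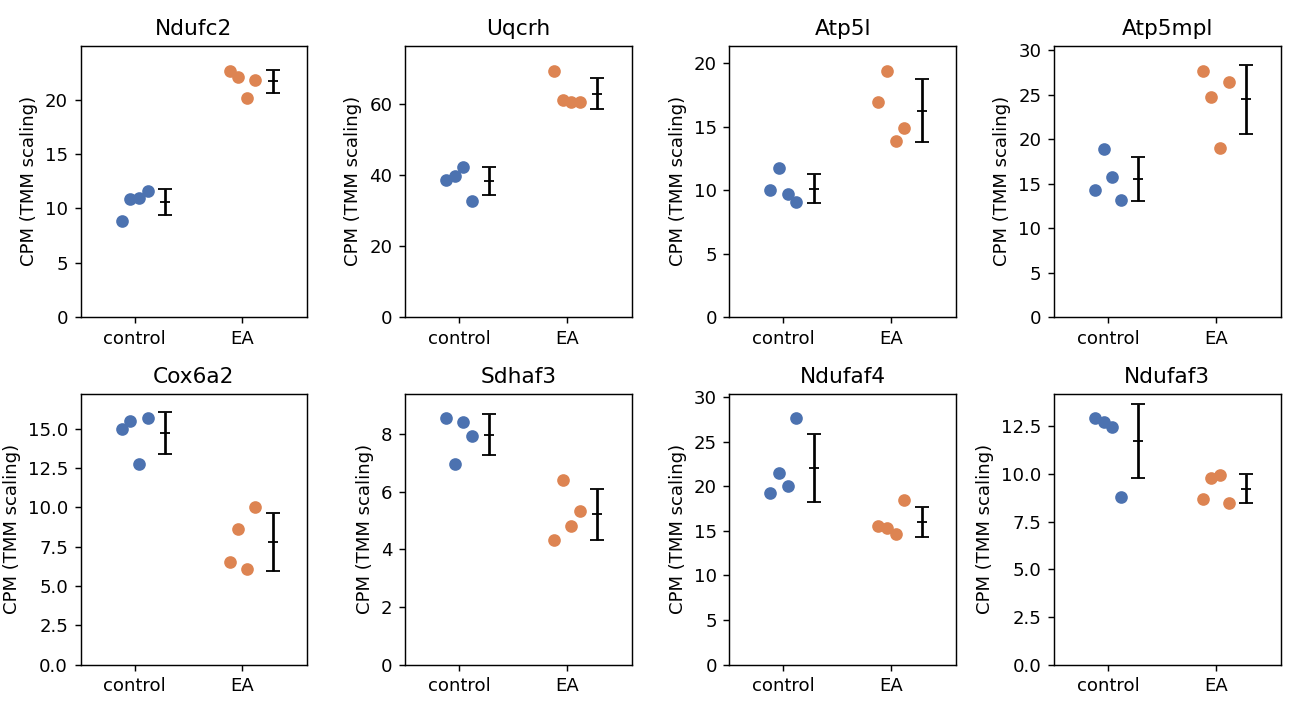
CPM with TMM scaling in each library, with the mean and SD of 4 libraries beside the points, for the 4 nuclear members with the largest rise and the 4 with the largest fall among those called. The groups do not overlap in 7 of the 8 genes; in Ndufaf3 control 4 lies within the EA range.

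Many nuclear respiratory genes carry binding motifs of NRF1 or of ETS factors such as GABP near their start, 2 activators known for coordinating this set. In the 250 bases before the start, from RefSeq on GRCm38.p6, 83 nuclear members had an entry. The palindromic NRF1 core CGCATGCG was found in 9 of them (10.8%), against 1.75% of 27025 genes. The ETS core CCGGAAG, searched on both strands and sharing no overlap with the former, was in 16 (19.3%), against 7.83%. The NRF1 core was in 3 of 25 members called higher, 1 of 7 called lower and 5 of 45 tested and not called. Of these 9 genes, Atp5l (0.68) was higher under TMM and library totals, Ndufa8 (0.26) and Atp5g2 (0.29) were higher with TMM but at −0.10 and −0.08 with library totals, and Ndufaf4 (−0.47) fell. Cox6a1 (0.14), Atp5k (0.20), Atp5j (0.15), Ndufa11 (−0.08) and Cycs (−0.06) did not pass. A match is a description of the letters and shows no binding.

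The promoters of 3 genes of this set are given here 5′ to 3′ on the strand of the gene: those of its largest rise, its one fall, and cytochrome c, a well known NRF1 target. Capitals mark the NRF1 and ETS cores. Atp5l is at chr9:44920743-44920992 (minus strand), Ndufaf4 at chr4:24897833-24898082 (plus strand) and Cycs at chr6:50566570-50566819 (minus strand), all GRCm38.p6.
Atp5l: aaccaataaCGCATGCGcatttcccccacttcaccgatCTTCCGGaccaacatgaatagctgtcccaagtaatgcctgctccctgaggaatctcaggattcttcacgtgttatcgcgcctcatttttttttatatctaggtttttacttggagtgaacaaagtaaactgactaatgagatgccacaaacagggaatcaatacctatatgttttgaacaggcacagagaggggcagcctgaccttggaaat
Ndufaf4: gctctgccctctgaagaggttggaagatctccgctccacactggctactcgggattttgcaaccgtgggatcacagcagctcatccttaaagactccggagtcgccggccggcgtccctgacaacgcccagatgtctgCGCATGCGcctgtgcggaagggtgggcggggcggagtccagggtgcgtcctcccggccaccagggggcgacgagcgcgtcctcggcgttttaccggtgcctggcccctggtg
Cycs: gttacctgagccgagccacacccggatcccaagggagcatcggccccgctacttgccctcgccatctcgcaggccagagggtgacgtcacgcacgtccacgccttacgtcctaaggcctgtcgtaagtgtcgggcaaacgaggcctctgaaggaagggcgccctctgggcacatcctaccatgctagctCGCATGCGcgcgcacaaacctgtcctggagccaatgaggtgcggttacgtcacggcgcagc
Each window holds the NRF1 core once, and that of Atp5l also holds an ETS core.

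Of 17 tested nuclear genes that copy and transcribe mitochondrial DNA, 12 were lower in EA and 1 higher, with a median of −0.66 (−1.02 with library totals). The calls came to 76.5% of the list, against 67.2% of all tested genes, of which 34.2% were lower, at a median of −0.02. Polrmt, the mitochondrial RNA polymerase, fell from 59.9 ± 7.09 to 34.9 ± 1.93 CPM (log2 −0.78 ± 0.08, adjusted p = 5.5e-08, edgeR). Twnk, the replicative helicase, fell from 46.5 ± 1.94 to 29.3 ± 2.19 CPM (−0.67 ± 0.07). Polg, the catalytic subunit of the mitochondrial DNA polymerase, was the single one higher, from 51.9 ± 3.03 to 92.6 ± 4.59 CPM (0.84 ± 0.06, adjusted p = 4.24e-10, edgeR). In all 3 genes the groups did not overlap.

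Genes that process and stabilise mitochondrial RNA gave 2 higher and 9 lower of 19 tested, with a median of −0.24. The 57.9% called lay below the 67.2% of all tested genes. With library totals 0 were higher and 16 lower, with a median of −0.61. Hsd17b10, a component of the enzyme that cuts tRNA 5′ ends, fell from 156 ± 6.47 to 108 ± 1.37 CPM (−0.54 ± 0.06), and Fastk from 48.4 ± 2.85 to 32.2 ± 3.91 CPM (−0.58 ± 0.08). Rexo2, an oligoribonuclease, was higher by 0.32 ± 0.06 with TMM, from 71.5 ± 2.09 to 89.0 ± 4.14 CPM, but at −0.05 with library totals. Fastkd5, needed to process precursors that lack a flanking tRNA, was higher by 0.61 ± 0.21, from 2.55 ± 0.652 to 3.92 ± 0.668 CPM, with a call lost without EA 1 (0.53), with upper-quartile factors (0.45) and with library totals (0.25).

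The lists of other assembly factors gave 0 higher and 4 lower of 9 tested for complex I and 3 higher and 11 lower of 25 for complexes II to V, with medians of −0.37 and −0.22. The calls came to 44.4% and 56% of the lists, both below the 67.2% of all tested genes. With library totals 0 of the 9 were higher and 8 lower. Of the 25, RLE factors called 8 lower, upper-quartile factors 15 and library totals 19. Coa7, an assembly factor of complex IV, fell from 8.57 ± 0.683 to 3.73 ± 0.648 CPM (−1.19 ± 0.15, adjusted p = 8.57e-07, edgeR). Cox15, which makes haem A, fell from 33.3 ± 1.63 to 19.5 ± 0.790 CPM (−0.77 ± 0.08), and Tmem126b, of the complex I intermediate assembly machinery, from 15.8 ± 1.86 to 8.87 ± 2.03 CPM (−0.83 ± 0.14). Timmdc1 of the same machinery fell by 0.45 ± 0.11. Ttc19, which acts late in complex III, was higher by 0.40 ± 0.08 and Cox14 by 0.32 ± 0.07 with TMM, but with library totals they were at 0.04 and −0.05 and did not pass.

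Among 7 tested regulators of respiratory genes 2 were higher and 1 lower, with a median of 0.07 that became −0.29 with library totals. With library totals 1 was higher and 4 lower, where 7196 of all 11777 tested genes were lower. The TMM calls came to 42.9% of the list, below the 67.2% of all tested genes. Pprc1, a coactivator related to PGC-1alpha, rose from 127 ± 10.5 to 220 ± 15.1 CPM (0.79 ± 0.07, adjusted p = 1.7e-09, edgeR) and Gabpb1, a subunit of GABP, from 34.8 ± 3.01 to 49.7 ± 1.33 CPM (0.51 ± 0.07); with library totals Gabpb1 was at 0.15 and did not pass. Esrra, an orphan nuclear receptor, fell from 38.1 ± 4.04 to 31.0 ± 2.19 CPM (−0.29 ± 0.09) with overlapping groups. Nrf1 (−0.01 ± 0.07) and Gabpa (0.07 ± 0.08), named here as the factors of the motifs above and chosen after their values were seen, did not pass.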

How the data were processed

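Read counts and FPKM per gene were deposited by the authors for 4 control and 4 EA libraries. FPKM is each count per gene length and library total, recomputed here to within 3.56e-14. The submitters' processing notes name cutadapt 1.15, HISAT2 2.0.5 and build GRCm39. For the counter, its strand setting, its handling of multiply mapped reads and the annotation release: not given in the sources used here.

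Counts were fitted in R 4.3.3 with edgeR 4.0.16 (TMM factors, filterByExpr by group, robust quasi-likelihood F test of the EA effect, no covariates), with Benjamini-Hochberg adjustment over all 11777 tested genes and calls at an adjusted p under 0.05. The biological coefficient of variation was 7.78%. SEs are the log2 fold change over the root of its F value. CPM values use TMM scaling, except summed markers, which use library totals. On simulated data of 11781 genes the test recovered 198 of 200 changed genes and called 4 others. The simulation was run with 2 random seeds and these rates are from the second. The first recovered all 200 changed genes and called more others. Only 200 of the 11781 genes differed between groups there, while 67.2% of all tested genes were called in the data. Recovery and wrong calls with so large a share of genes differing, or under another scaling, was not tested.

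The members, gene lists and markers were chosen with earlier results of these data known. Named genes are all mt- members, in each nuclear group up to 3 called genes per direction by p and the highest and lowest by FPKM, the isoform sets, and up to 2 called genes per direction of each list; genes outside this rule are marked or are neighbours or motif carriers. One gene that the rule names is counted but not reported here. Alternatives were RLE and upper-quartile factors, library totals, no count filter, DESeq2 1.42.0, limma 3.58.1 voom, the replicate number as a block and leaving out each library. Copies of GENCODE M21 coding sequences were sought with blastn 2.17.0 among the annotated transcripts of that release, not in the whole genome. The limits, 99% identity or more over at least 40 bases, were set after the matches were seen. Promoters are from RefSeq. The NRF1 motif was chosen after a first search had been seen: a longer core, found in fewer member promoters, and that core with 1 free base, found in more, were both replaced by the shorter core used here; each was at a higher share among members than among all promoters. Figures used matplotlib 3.10.9.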

Additional observations from a re-analysis of the deposited data

Results flagged for a closer look

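In 13 of 172 groups of 4 examined, 1 library stood far from the other 3 relative to the range of the group; chance alone marks about 5% of such groups. The mitochondrial share of reads was 2.32% in EA 4 against 2.67 to 2.73% in the other EA libraries, and mt-Nd2 was at 1396 CPM there against 1827 to 1878. In control 1, mt-Nd1 was at 1055 CPM against 1431 to 1478 in the other controls. Control 4 was low in Ndufa2 (35.4 CPM against 45.1 to 46.5), Ndufaf3 (8.80 against 12.4 to 12.9), Cox8a (166 against 200 to 203) and Cox6a1 (144 against 166 to 170), and high in Fastkd5 (3.52 against 2.17 to 2.32). Control 3 was high in Sdhc (75.9 CPM against 65.8 to 67.1) and Gpd2 (50.5 against 41.7 to 42.4). EA 3 was low in Uqcrc1 (104 CPM against 115 to 117) and Cycs (82.3 against 96.4 to 97.3), and EA 1 was high in Uqcrh (69.5 against 60.6 to 61.2).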

How the results depend on the processing

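With library totals all genes gave 1940 higher and 7196 lower and nuclear members 4 and 57; with upper-quartile factors nuclear members gave 9 and 24. The cause of this dependence was not tested. With library totals these named genes changed sign, in log2 fold change: Ndufv2 −0.041, Ndufs1 −0.28, Ndufb10 −0.088, Ndufb2 −0.17, Ndufaf1 −0.056, Sdhc −0.13, Sdhaf2 −0.16, Sdha −0.20, Uqcrc1 −0.15, Uqcrb −0.33, Atp5g2 −0.078, Cox4i1 −0.21, Cox6a1 −0.22, Cox7a2 −0.33, Cox7a2l −0.25, Ndufa4 −0.27, Atp5g1 −0.32, Atp5g3 −0.28, Cox14 −0.047, Rexo2 −0.048. With upper-quartile factors these did: Ndufs1 −0.075, Uqcrb −0.13, Cox4i1 −0.0060, Cox6a1 −0.019, Cox7a2 −0.12, Cox7a2l −0.042, Ndufa4 −0.062, Atp5g1 −0.12, Atp5g3 −0.074. RLE factors, DESeq2, limma voom and no filter reversed no named gene, and the mitochondrial counts were 7 to 11 higher and 0 lower under every alternative run. With 1 library left out, lower nuclear members ranged from 5 to 10, the difference in mitochondrial share from 0.45 to 0.638 points and the exact permutation p from 0.0286 to 0.0571 (all 4 fits without a control at 0.0571), and these changed sign: Ndufb2 (−0.0027 to 0.36, negative without EA 3), Uqcrb (−0.030 to 0.085, negative without control 3 and, at −0.017, without EA 2), Cox8a (−0.098 to 0.0043, positive without EA 3), Cycs (−0.12 to 0.030, positive without control 4) and Cox7a2 (−0.046 to 0.11, negative without control 4). Deviations of log2 CPM from the group means, over tested genes, correlated at −0.0215 to 0.0266 between same-numbered libraries. No library correlated best with the one of its own number, and the largest value was 0.0972, for control 1 with EA 4. By this measure no pairing by number was seen, and the labels do not state one. With the replicate block all genes gave 3834 higher and 3960 lower, mitochondrial genes 8 and 0 and nuclear members 31 and 10, and mt-Co3, mt-Nd6 and Ndufab1 were not called. Depth limits mt-Atp8 and the restricted complex IV forms.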

Other observations

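Genes of coenzyme Q synthesis, which make the carrier between complexes I, II and III, gave 9 lower and 2 higher of 13 tested, with a median log2 fold change of −0.38 (−0.74 with library totals, which gave the same counts). The calls came to 84.6% of the list, against 67.2% of all tested genes, of which 34.2% were lower. Coq9, a lipid-binding factor of the pathway, fell from 42.0 ± 3.40 to 24.6 ± 2.37 CPM (−0.77 ± 0.09, adjusted p = 1.21e-07, edgeR quasi-likelihood test), and Coq3, a methyltransferase, from 20.0 ± 2.18 to 12.8 ± 0.482 CPM (−0.64 ± 0.10). Coq10b, a coenzyme Q binding protein, went the other way, 3.19-fold from 11.9 ± 1.5 to 38.2 ± 2.67 CPM (1.68 ± 0.10, adjusted p = 4.19e-12, edgeR), and Coq8b, an atypical kinase, rose from 8.39 ± 0.825 to 13.9 ± 1.1 CPM (0.73 ± 0.12). In all 4 genes the groups did not overlap.

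The tricarboxylic acid cycle moved little with TMM, with 1 of 16 tested genes higher, 4 lower and a median of −0.05, which became 1 higher and 15 lower with library totals. Calls with TMM were 31.25% of the list, against 67.2% of all tested genes. Dlst, the succinyltransferase of the oxoglutarate dehydrogenase complex, rose from 128 ± 6.58 to 225 ± 5.66 CPM (0.81 ± 0.06, adjusted p = 6.16e-11, edgeR) and was also higher with library totals (0.45). Fh1, fumarase, fell from 68.0 ± 3.01 to 52.6 ± 4.81 CPM (−0.37 ± 0.07) and Dld, the shared dihydrolipoamide dehydrogenase, from 112 ± 6.43 to 89.8 ± 3.71 CPM (−0.32 ± 0.06). Of 6 tested genes for cytochrome c1 and other electron carriers 1 was higher and 2 lower with TMM, and 0 higher and 5 lower with library totals. Their TMM calls came to 50%, against 67.2% of all tested genes. Sqor, which passes electrons from sulfide to ubiquinone, fell 2.07-fold from 65.6 ± 3.89 to 31.7 ± 3.51 CPM (−1.05 ± 0.08, adjusted p = 3.45e-10, edgeR). Etfa, of the electron transfer flavoprotein, was higher by 0.46 ± 0.07 with TMM, from 57.6 ± 5.5 to 79.4 ± 1.58 CPM, but at 0.10 with library totals, where it did not pass. Gpd2, the glycerol phosphate dehydrogenase, fell by 0.18 ± 0.08, from 44.1 ± 4.26 to 39.0 ± 1.91 CPM. The call of Gpd2 was lost with RLE factors, DESeq2, limma voom and no filter, and without control 2, control 3, EA 1, EA 2 or EA 4 (−0.21 to −0.10 over all 8).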
